A study of Mus musculus with 6 samples.

Results

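The integrins described here are 10 subunit genes of leukaemia cell adhesion, out of 30142 genes measured: Itgam, Itgal, Itgax and their partner Itgb2, Itga4, Itga5, Itga6 and their partner Itgb1, and Itgb7 and Itgb3. They were chosen by gene symbol. Each had a single row on the array that carried its symbol alone, and all 10 were found. The cells were MLL-AF9 induced acute myeloid leukaemia (AML) cells of mouse, in which a fusion of MLL with AF9 drives the disease, taken from recipient bone marrow at the end stage and purified by flow cytometry. The 3 control arrays carry RNA of leukaemia from littermate controls and the 3 arrays labelled Dnmt3b-KO RNA of leukaemia with a knockout of Dnmt3b, and both groups share the oncogene, the tissue and the stage. Dnmt3b encodes a de novo DNA methyltransferase. The sorting markers, the deleted exons, the ages and whether each array is a separate mouse are not given in the sources used here. Unless the arrays are separate mice, p-values here cover no more than the spread between arrays, which may be technical.

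An integrin is a receptor of an alpha and a beta chain that links the cell surface to matrix or to a ligand on another cell. Cytoplasmic signals through RAP1, talin and kindlin switch it from a bent, low affinity form to an extended, high affinity form. In myeloid cells the beta2 integrins bind ICAMs, complement and fibrinogen, the beta1 integrins hold cells to fibronectin, VCAM1 and laminin in the marrow, and beta3 pairs with alphaV or, in platelets, with alphaIIb.

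All values are deposited log2 levels, made by the authors with RMA, and differences are in those log2 units. The level of a row depends on its probes, so levels of different genes are not set against each other. As a guide to the bottom of the scale, the median gene averaged 4.79 over the arrays, and the 23 background rows of the array ran from 2.3 to 5.62. Of the 10 integrins 9 lay above every background row of the same array on all 6 arrays. The exception was Itgax.

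Dnmt3b-KO replicate 3 stood apart, with correlations across genes of 0.981 to 0.982 with the other 5 arrays against 0.998 to 0.999 among those 5. It alone carried the Y-linked Eif2s3y, at 8.26 against 4.41 to 4.54, so the Dnmt3b-KO arrays were not alike in this Y-linked signal. What goes with that signal cannot be told apart from the other differences of replicate 3. The integrins are therefore compared with and without replicate 3. Dnmt3b measured 6.76, 6.83 and 6.78 in control and 6.47, 6.63 and 5.96 on the Dnmt3b-KO arrays, a difference of -0.44 ± 0.17 (SE) that limma did not call (adjusted p = 0.78), and of -0.24 ± 0.07 without replicate 3 (adjusted p = 0.16). The 3 Dnmt3b-KO values were the lowest, but the row does not show a loss of the transcript, and with the deleted exons unstated its probes may lie outside them. The 8 measured leukaemia and myeloid progenitor markers, among them Mpo, Elane and Meis1, lay above the median gene on every array, with a mean level of 13.8 to 13.83 in control, 14.0 to 14.04 on Dnmt3b-KO replicates 1 and 2 and 13.14 on replicate 3.

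**Figure D1:**
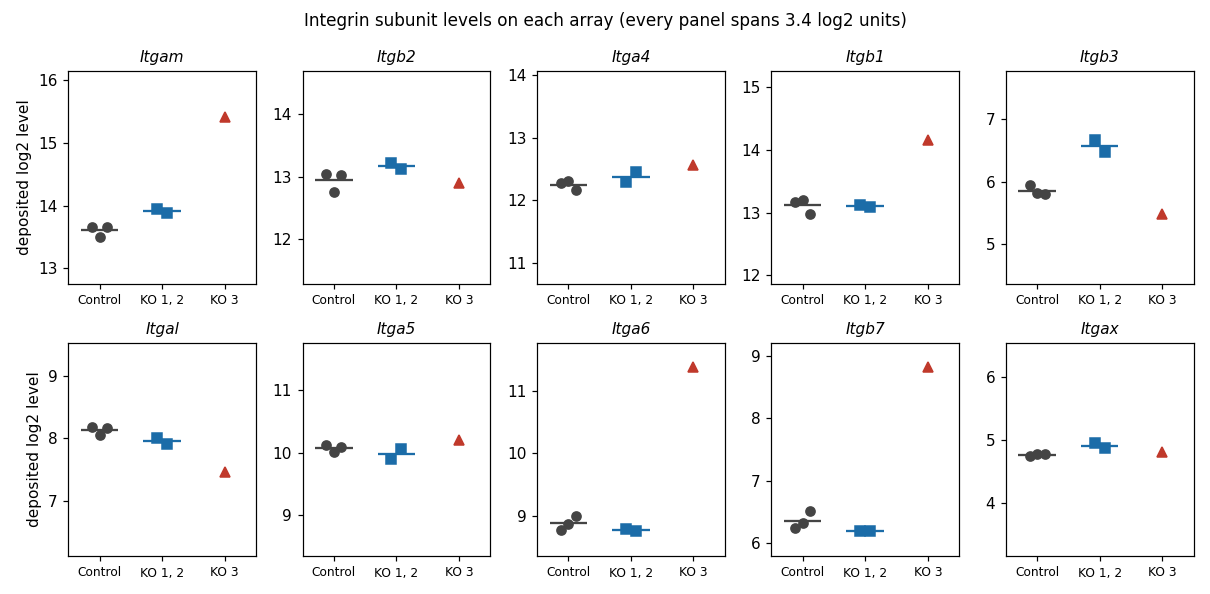
Deposited log2 level (y axis, each panel the same height in log2 units) of the 10 integrin subunits on each array, with the 3 control arrays as circles, Dnmt3b-KO replicates 1 and 2 as squares and replicate 3 as a triangle; lines are means. Itga6, Itgb7, Itgam and Itgb1 stand higher on Dnmt3b-KO replicate 3 than on any other array, and Itgb3 is higher on replicates 1 and 2 and lowest on replicate 3.

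Over all 6 arrays none of the 10 integrins passed the threshold, an adjusted p under 0.05 in limma with Benjamini-Hochberg adjustment over all genes. This was also 0% of all 30142 genes. At an unadjusted p under 0.05 there were 0 of the 10 integrins and 1920 of all genes (6.37%), and a fit with array weights called 0 integrins and 103 genes. The integrins' adjusted p ran from 0.81 to 0.97. Their changes had a median of 0.27 with 8 above 0 and 2 below, beside a median of 0.0 over all genes. Control and Dnmt3b-KO values did not overlap for 3 integrins, Itgam and Itgax on the higher side and Itgal on the lower, where 14.9% of all genes did not overlap.

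Without Dnmt3b-KO replicate 3, a single integrin, Itgb3, passed and rose. All genes together gave 1.69% called, 0.939% higher and 0.75% lower. The other 9 had adjusted p from 0.12 to 0.98. An unadjusted p under 0.05 was reached by 4 integrins, Itgam, Itgb3, Itgal and Itgax, where 15.5% of all genes reached it. The groups did not overlap for 6 integrins, 4 higher and 2 lower, against 32.5% of all genes, 15.1% higher and 17.4% lower. The median change of the 10 was 0.06 with 5 above 0 and 5 below, beside -0.01 over all genes.

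**Figure D2:**
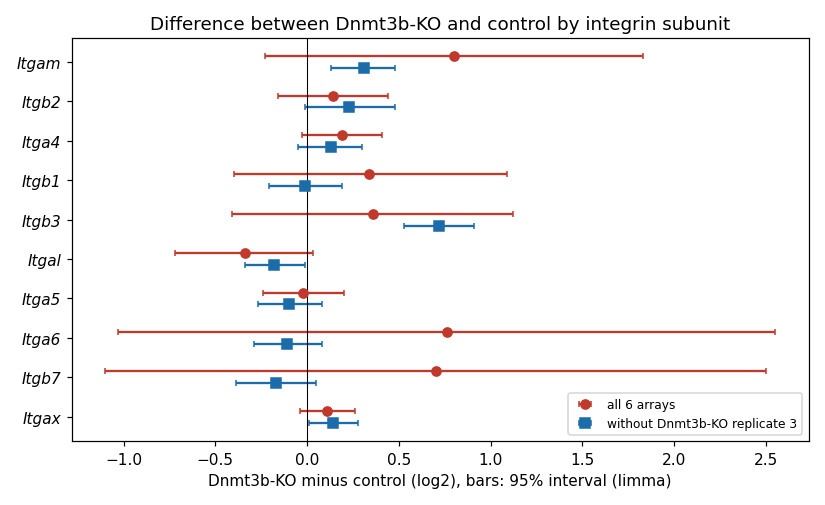
Dnmt3b-KO minus control (x axis, log2 units) for each of the 10 integrins from limma, with all 6 arrays (circles) and without Dnmt3b-KO replicate 3 (squares); bars are 95% intervals. The intervals of Itga6 and Itgb7 over 6 arrays run from -1.03 to 2.55 and from -1.1 to 2.5, and the interval of Itgb3 without replicate 3, 0.53 to 0.91, lies above 0.

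Among the beta2 integrins, Itgam encodes alphaM, the CD11b chain of the complement receptor Mac-1. It measured 13.66, 13.5 and 13.66 in control and 13.95, 13.88 and 15.41 in Dnmt3b-KO, in order of replicate. Every Dnmt3b-KO value lay above the controls, and replicate 3 stood far above all other arrays. The difference was 0.8 ± 0.42 (SE; limma, adjusted p = 0.83) over 6 arrays and 0.31 ± 0.07 (adjusted p = 0.12) without replicate 3. Without that array the 95% interval ran from 0.13 to 0.48.

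Itgb2 encodes beta2, the CD18 chain that all of these alpha chains need to reach the surface. It measured 13.04, 12.76 and 13.02 in control and 13.22, 13.12 and 12.89 in Dnmt3b-KO. Both Dnmt3b-KO replicates 1 and 2 lay just above the controls and replicate 3 within them, so Itgb2 did not follow Itgam on replicate 3. The difference was 0.14 ± 0.12 (SE; limma, adjusted p = 0.83) over 6 arrays and 0.23 ± 0.1 (adjusted p = 0.34) without replicate 3.

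Itgal encodes alphaL, which with beta2 forms LFA-1, a receptor for ICAMs. It measured 8.19, 8.06 and 8.16 in control and 8.01, 7.91 and 7.46 in Dnmt3b-KO. Every Dnmt3b-KO array lay lower than the lowest control, replicate 3 the furthest. The difference of -0.34 ± 0.15 (SE; limma, adjusted p = 0.81) had the smallest adjusted p of the 10 over 6 arrays and did not pass, and without replicate 3 it was -0.18 ± 0.07 (adjusted p = 0.28).

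Itgax encodes alphaX, the CD11c chain typical of dendritic cells and some macrophages. It measured 4.75, 4.77 and 4.78 in control and 4.95, 4.87 and 4.81 in Dnmt3b-KO, close to the median gene and below the highest background row of the same array on each array. Its groups did not overlap, but the difference was 0.11 ± 0.06 (SE; limma, adjusted p = 0.83), or 0.14 ± 0.06 without replicate 3 (adjusted p = 0.29), at a level within the range of the background rows. Itgam and Itgax are neighbours on chromosome 7 of assembly GRCm38.p6, followed by Itgad, which measured 4.68 to 4.73 in control and 4.64 to 4.73 in Dnmt3b-KO. On Dnmt3b-KO replicate 3 Itgam was 1.49 above replicates 1 and 2, whereas Itgax differed by -0.1 and Itgad by 0.01.

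Of the beta1 integrins, Itga4 encodes alpha4, the chain of VLA-4 that binds VCAM1 and fibronectin and holds leukaemia and progenitor cells in marrow. It measured 12.27, 12.31 and 12.17 in control and 12.3, 12.45 and 12.57 in Dnmt3b-KO. The groups overlapped through Dnmt3b-KO replicate 1. The difference was 0.19 ± 0.09 (SE; limma, adjusted p = 0.82) over 6 arrays and 0.13 ± 0.07 (adjusted p = 0.51) without replicate 3, with 95% intervals of -0.03 to 0.41 and -0.05 to 0.3.

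Itga5 encodes alpha5 of the classical fibronectin receptor. It measured 10.12, 10.02 and 10.09 in control and 9.9, 10.06 and 10.21 in Dnmt3b-KO, with Dnmt3b-KO values on both sides of the controls. Its difference of -0.02 ± 0.09 (SE; limma, adjusted p = 0.97) was the smallest of the 10 over 6 arrays, with a 95% interval of -0.24 to 0.2, and its sign turned under quantile normalization. Without replicate 3 it was -0.1 ± 0.07 (adjusted p = 0.62).

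Itgb1 encodes beta1, the common partner of alpha4, alpha5 and alpha6. It measured 13.17, 13.2 and 12.97 in control and 13.12, 13.09 and 14.16 in Dnmt3b-KO. Both Dnmt3b-KO replicates 1 and 2 lay within the controls, and replicate 3 lay above every other array. The difference of 0.34 ± 0.3 (SE; limma, adjusted p = 0.83) became -0.01 ± 0.08 (adjusted p = 0.98) without that array, with a 95% interval of -0.21 to 0.19.

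Itga6 encodes alpha6, which with beta1 or beta4 binds laminin. It measured 8.77, 8.87 and 8.99 in control and 8.79, 8.75 and 11.37 in Dnmt3b-KO. Both Dnmt3b-KO replicates 1 and 2 lay at the lower edge of the controls, and replicate 3 stood above all other arrays by a wide gap. Over 6 arrays the difference was 0.76 ± 0.72 (SE; limma, adjusted p = 0.84), and without replicate 3 it was -0.11 ± 0.08 (adjusted p = 0.6).

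Itgb7 encodes beta7, which joins alpha4 in the receptor for the gut addressin MAdCAM1, or alphaE. It measured 6.25, 6.32 and 6.52 in control and 6.2, 6.19 and 8.81 in Dnmt3b-KO. As for Itga6, replicate 3 alone was high, and replicates 1 and 2 lay just below the controls. The difference of 0.7 ± 0.73 (SE; limma, adjusted p = 0.84) became -0.17 ± 0.09 (adjusted p = 0.45) without replicate 3. Of the partner chains of beta7, Itga4 was 0.2 above replicates 1 and 2 on that array, and Itgae measured 3.88 to 3.97 on all arrays, within the range of the background rows.

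Itgb3 encodes beta3, which binds fibronectin, vitronectin and fibrinogen with alphaV, and fibrinogen with alphaIIb on platelets. It measured 5.94, 5.82 and 5.8 in control, 6.66 and 6.48 on Dnmt3b-KO replicates 1 and 2 and 5.48 on replicate 3. Replicates 1 and 2 lay above every control and replicate 3 below every control. Without replicate 3 Itgb3 rose by 0.72 ± 0.08 (SE; limma, adjusted p = 0.02), and over 6 arrays the difference was 0.36 ± 0.31 (adjusted p = 0.83). The call ended when 1 more array was left out, with changes of 0.63 (without Dnmt3b-KO replicate 1), 0.81 (without Dnmt3b-KO replicate 2), 0.76, 0.7 and 0.69 (without control replicate 1, 2 and 3) and adjusted p from 0.053 to 0.14. The value of Itgb3 on replicate 3 was little above the highest background row there, 5.34. On control replicate 2 its value of 5.82 was also little above the highest background row, 5.62. On control replicates 1 and 3 that row stood at 4.97 and 4.96.

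The chains that pair with beta3 were measured too. Itgav, alphaV, measured 10.17, 10.1 and 10.09 in control and 10.43, 10.31 and 10.25 in Dnmt3b-KO, all above the controls, with a difference of 0.25 without replicate 3 that did not pass (limma, adjusted p = 0.13, and 0.21 over 6 arrays, adjusted p = 0.71). Itga2b, alphaIIb, stayed at 4.46 to 4.53 on all 6 arrays, below the median gene. Of 7 measured megakaryocyte and platelet markers 6 lay below the median gene on the 5 arrays without Dnmt3b-KO replicate 3. Their mean level was 4.15 to 4.21 in control, 4.14 to 4.18 on Dnmt3b-KO replicates 1 and 2 and 5.25 on replicate 3. The rise of that mean on replicate 3 rests mainly on Pf4, a platelet chemokine gene, which measured 10.22 there. Pf4 was the only 1 of the 7 to stand higher than on replicates 1 and 2 by more than 1. The other markers differed by 0.0 to 0.54. Itgb3 was high on replicates 1 and 2 and low on replicate 3.

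On Dnmt3b-KO replicate 3, 5 of the 10 integrins differed from the mean of replicates 1 and 2 by more than 1, 4 higher and 1 lower. Of all genes 6.97% differed by that much, 4.03% higher and 2.94% lower, and of genes above the median gene 12.4%. These are values of 1 array without a test. Itgb7 was higher by 2.62, Itga6 by 2.61, Itgam by 1.49 and Itgb1 by 1.06, and Itgb3 stood at -1.08. Next in size was Itgal at -0.5, and the other 4, Itgb2, Itga5, Itga4 and Itgax, lay between -0.28 and 0.23. Against the controls, 7 integrins lay above every control on that array, Itgal and Itgb3 below every control and Itgb2 within them, where 75.4% of all genes lay beyond every control in either direction.

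Markers of other cells also differed on that array. Of 14 monocyte and macrophage markers 10 were higher on Dnmt3b-KO replicate 3 than on replicates 1 and 2 by more than 1 and 1, Vcam1, was lower. Their mean level was 7.14 to 7.3 in control, 7.14 to 7.33 on Dnmt3b-KO replicates 1 and 2 and 11.07 on replicate 3. Below the median gene on the other 5 arrays were 3 of them, Mrc1, C1qa and C1qc. Of 8 mast cell, basophil and eosinophil markers 5 were lower by more than 1 on replicate 3, and their mean level was 8.55 to 8.64 in control, 7.39 to 7.64 on replicates 1 and 2 and 6.25 on replicate 3. Within that list Cpa3, Prg2, Epx and Hdc lay below every control on replicates 1 and 2, whereas Siglecf and Mcpt8 lay above every control there. Of 6 neutrophil markers 2, S100a8 and S100a9, were lower by more than 1 on replicate 3. The mean of the 6 was 7.77 to 8.29 in control, 7.69 to 7.78 on replicates 1 and 2 and 7.1 on replicate 3. Of 7 dendritic cell markers 1, Cd209a, was higher there by more than 1, and of 4 B cell markers 1, Cd79b, was lower. The T and NK cell markers (6 of 6) and the stromal and endothelial markers (5 of 5) lay below the median gene on all arrays. The part of these markers in the integrin values of replicate 3 was not tested. In such sorted bulk samples fewer cells of a type and less RNA per cell cannot be told apart.

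**Figure D3:**
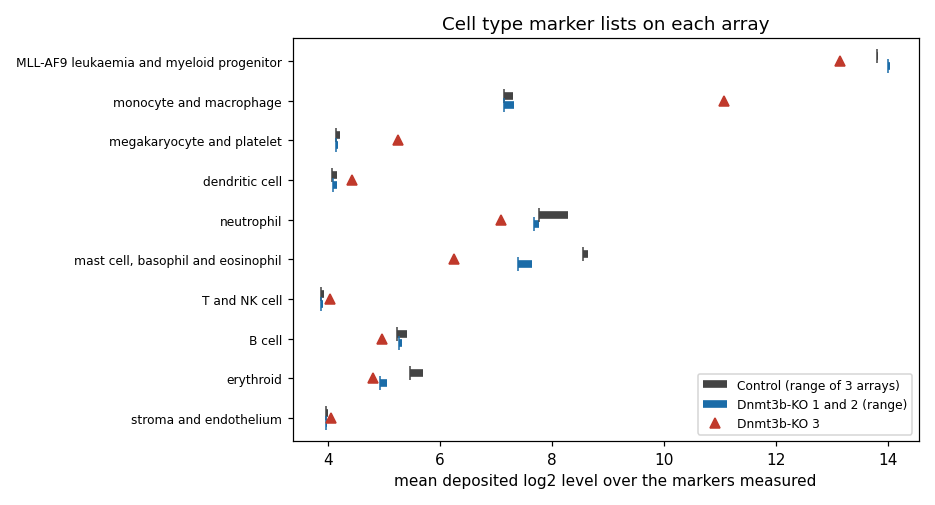
Mean deposited log2 level (x axis) over the measured markers of each cell type, with the range of the 3 control arrays, the range of Dnmt3b-KO replicates 1 and 2, and Dnmt3b-KO replicate 3 as a triangle. The monocyte and macrophage markers reach 11.07 on replicate 3 against at most 7.33 on the other arrays, and the mast cell, basophil and eosinophil markers lie lowest there, at 6.25.

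The gene with the profile most like each integrin was found among 10921 genes whose mean in control or in Dnmt3b-KO exceeded the median gene, leaving out clone and predicted gene names, by the root mean square distance over 6 arrays between values taken from each gene's own control mean. For Itga6 it was Itgb7, and for Itgb7 it was Itga6, at a distance of 0.05. Their differences between replicate 3 and replicates 1 and 2, 2.61 and 2.62, were nearly equal. The match rests mainly on that 1 array, as Itga6 and Itgb7 differed from control by -0.11 and -0.17 without it. These 2 chains are not known as partners in a receptor. For Itgam it was Anxa5, which encodes a phospholipid-binding annexin, at a distance of 0.05, with 13.23, 13.14 and 13.32 in control and 13.68, 13.5 and 14.99 in Dnmt3b-KO. For Itgb3 it was Adssl1, an enzyme gene of purine metabolism, at 0.05, with 13.42, 13.28 and 13.29 in control and 14.06, 13.97 and 13.04 in Dnmt3b-KO. For Itgb1 it was Wwp1, a ubiquitin ligase gene, at 0.04. Within a wider distance of 0.15 lay 34 genes for Itgb3, 37 for Itgam and 53 for Itga6, but 279 for Itgb1 and 3105 for Itgax. At that distance, similar profiles were more common for the flatter members. For Itgb2, Itga4, Itgal, Itga5 and Itgax the nearest were Snord4a, Blzf1, Adam18, Rnf41 and Coro1b, at 0.02 to 0.04.

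CpG dinucleotides are the sites on which DNMT3B acts, so the 250 bases before the start of each integrin gene were read from RefSeq promoters of build GRCm38.p6, where 6 of the 10 have an entry. Promoters of 3 members that were high on Dnmt3b-KO replicate 3 are shown, 5′ to 3′ on the gene's strand, with each CpG (the letters CG, the same on both strands) in capitals.
Itgam, chr7:128062390-128062639, plus strand: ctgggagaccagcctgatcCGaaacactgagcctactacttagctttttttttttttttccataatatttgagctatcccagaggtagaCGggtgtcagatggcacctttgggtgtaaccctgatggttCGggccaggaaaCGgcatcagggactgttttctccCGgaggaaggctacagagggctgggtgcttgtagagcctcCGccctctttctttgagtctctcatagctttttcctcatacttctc
Itgb1, chr8:128685404-128685653, plus strand: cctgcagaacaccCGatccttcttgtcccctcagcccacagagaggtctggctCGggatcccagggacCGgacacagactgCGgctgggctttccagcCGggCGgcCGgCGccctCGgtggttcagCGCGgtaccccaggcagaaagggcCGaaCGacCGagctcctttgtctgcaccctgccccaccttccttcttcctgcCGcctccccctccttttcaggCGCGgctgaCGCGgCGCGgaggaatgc
Itgb7, chr15:102231936-102232185, minus strand: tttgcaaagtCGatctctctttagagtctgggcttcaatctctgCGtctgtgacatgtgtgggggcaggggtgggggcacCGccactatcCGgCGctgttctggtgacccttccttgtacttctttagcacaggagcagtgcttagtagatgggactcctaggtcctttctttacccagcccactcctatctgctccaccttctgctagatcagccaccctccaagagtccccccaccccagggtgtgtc

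The Itgb1 promoter held 21 CpG and 68.0% G and C, and 16.3% of the 32851 promoters in the table held at least as many CpG in the same length. The Itgam promoter held 6 CpG and 49.6% G and C, and 50.4% of promoters held at least as many. The Itgb7 promoter held 5 CpG and 56.0% G and C, with 55.6% of promoters at or above that number. Of the others with an entry, Itga5 held 11, Itga4 held 6 and Itgax held 5, beside a median of 6 over all promoters. The members with an entry that were high on replicate 3 thus include a promoter rich in CpG and promoters near the median. Itga6, also high there, has no entry, nor have Itgb2, Itgb3 and Itgal. Without replicate 3, Itgam, Itgb1 and Itgb7 differed from control by 0.31, -0.01 and -0.17, and none was called. A link of these sequences to the knockout was not tested. Methylation was not measured on these arrays.

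Other genes of the integrin system were followed as 5 lists, chosen with earlier results of these data known. Over 6 arrays none of their measured members passed the threshold in limma, with 2 of 15 other integrin subunits, 3 of 28 activators and adaptors, 1 of 26 ligands, 2 of 12 membrane partners and 2 of 12 other adhesion molecules at an unadjusted p under 0.05, where all genes gave 6.37%. In limma without Dnmt3b-KO replicate 3, an unadjusted p under 0.05 was reached by 4 of 15, 12 of 28, 3 of 26, 5 of 12 and 4 of 12. The lists stand in the same order, and 15.5% of all genes reached it. Past the threshold without replicate 3 were 3 members of the 5 lists, where 1.69% of all genes were called, 0.939% higher and 0.75% lower. Cyth1 and Thbs1 rose and Cd34 fell. Each of these calls ended when 1 more array was left out, while the changes ran from 0.35 to 0.38 for Cyth1, from 0.33 to 0.41 for Thbs1 and from -1.24 to -0.79 for Cd34.

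Of 15 other integrin subunits 11 lay below the median gene on all arrays, and none passed in either fit. Their median change without replicate 3 was -0.03. The smallest p was that of Itga9, whose alpha9 chain pairs with beta1, with 5.37, 5.45 and 5.36 in control and 5.09, 5.05 and 4.73 in Dnmt3b-KO. Each Dnmt3b-KO array lay lower than the lowest control. The differences were -0.43 over 6 arrays (limma, adjusted p = 0.65) and -0.32 without replicate 3 (adjusted p = 0.064). All 6 values of Itga9 lay within the range of the background rows. On the 3 Dnmt3b-KO arrays Itga9 lay below the highest background row of the same array, at 5.26, 5.53 and 5.34. The same held on control replicate 2 (5.62) but not on control replicates 1 and 3 (4.97 and 4.96). Singled out after their values were seen, Itga8 measured 4.53, 4.66 and 4.57 in control, 4.5 and 4.48 on Dnmt3b-KO replicates 1 and 2 and 7.27 on replicate 3, and Itgb5 measured 6.69, 6.82 and 6.88, then 7.16 and 7.12, and 8.71 on replicate 3. They were the only 2 of the 15 other subunits to differ by more than 1 on that array, where 6.97% of all genes did.

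Activators and adaptors carry the signal to the integrin tails. Of 28 measured, 1 rose without replicate 3, where 0.939% of all genes were called higher, and 27 did not pass, and their median change was 0.09. Cyth1, a guanine exchange factor that binds the beta2 tail, measured 8.35, 8.34 and 8.34 in control and 8.72 and 8.69 on Dnmt3b-KO replicates 1 and 2, a rise of 0.36 ± 0.05 (SE; limma, adjusted p = 0.034). On replicate 3 it measured 8.21, below every control, and over 6 arrays its difference was 0.2 (limma, adjusted p = 0.83). Itgb1bp1, whose product binds the beta1 tail, had the smallest p over 6 arrays, with 6.86, 6.89 and 6.85 in control and 6.69, 6.61 and 6.74 in Dnmt3b-KO (limma, difference -0.19, adjusted p = 0.7, and -0.22 without replicate 3, adjusted p = 0.14). On replicate 3, the list had a median difference of -0.36 from replicates 1 and 2. There 2 members were higher and 3 lower by more than 1, against 4.03% and 2.94% of all genes. Of genes above the median gene, 12.4% differed by that much in either direction. Of the 28 members 5 lay below the median gene on all arrays. The 2 higher were Parvb, a parvin, by 1.85 and Tln2, a talin, by 1.25, and the 3 lower were Rasgrp2, an exchange factor of RAP1, at -1.55, Vcl, vinculin, at -1.28 and Cytip, which binds cytohesin 1, at -1.17. Singled out after their values were seen, the other talin, Tln1, stood at -0.98, kindlin-3 (Fermt3) at -0.92 and Rap1a and Rap1b at 0.58 and 0.55.

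Ligands of the integrins are made mainly by stroma, endothelium and plasma-forming tissues, and 18 of 26 measured lay below the median gene on all arrays. Thbs1, thrombospondin 1, measured 4.55, 4.53 and 4.56 in control and 4.88, 4.96 and 4.82 in Dnmt3b-KO, above every control throughout. It rose by 0.37 without replicate 3 (limma, adjusted p = 0.039) and differed by 0.34 over 6 arrays (adjusted p = 0.57), at levels near the median gene and within the range of the background rows. Fn1, fibronectin, spread widely within the groups, at 8.24, 8.09 and 9.15 in control and 9.74, 8.71 and 7.39 in Dnmt3b-KO. On replicate 3, 4 of the 26 were higher and 3 lower than on replicates 1 and 2 by more than 1, against 4.03% and 2.94% of all genes. There Icam1 was 2.13 above replicates 1 and 2, and Icam2 stood at -1.23 from them. Vcam1, the ligand of alpha4, measured 10.66 to 10.77 in control, 10.64 and 10.61 on Dnmt3b-KO replicates 1 and 2 and 9.04 on replicate 3. Lamc1, a laminin chain, measured 4.08 to 4.21 on 5 arrays and 10.68 on replicate 3.

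Of 12 membrane partners none passed in either fit. The smallest p belonged to the tetraspanin genes Cd82 over 6 arrays (limma, difference 0.21, adjusted p = 0.75, and 0.25 without replicate 3, adjusted p = 0.19) and Cd53 without replicate 3 (difference 0.24, adjusted p = 0.14, and 0.42 over 6 arrays, adjusted p = 0.78). On replicate 3, 4 were higher and 1 lower by more than 1, against 4.03% and 2.94% of all genes, with a median of 0.7. Of genes above the median gene, 12.4% differed by that much in either direction on that array. None of the 12 partners lay below the median gene on all arrays. Cd9, a tetraspanin that binds beta1 integrins, measured 6.58 to 6.88 on 5 arrays and 9.74 there, and the scavenger receptor gene Cd36 3.83 to 4.12 and 9.5.

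Among 12 other adhesion molecules of homing, Cd34, a sialomucin of progenitors, measured 9.41, 9.68 and 9.68 in control and 8.81, 8.35 and 6.84 in Dnmt3b-KO. The 3 Dnmt3b-KO arrays all lay lower than the lowest control. It fell by 1.01 without replicate 3 (limma, adjusted p = 0.038) and differed by -1.59 over 6 arrays (adjusted p = 0.71), and the other 11 did not pass. Cd33, a sialic acid receptor of myeloid cells, had the smallest p over 6 arrays, with 12.36, 11.88 and 12.55 in control and 13.06, 12.85 and 13.33 in Dnmt3b-KO (limma, difference 0.82, adjusted p = 0.65, and 0.69 without replicate 3, adjusted p = 0.16). On replicate 3, 1 of the 12 was higher and 4 were lower by more than 1, against 4.03% and 2.94% of all genes. Of genes above the median gene, 12.4% differed by that much in either direction on that array. Of the 12 members 3 lay below the median gene on all arrays. The higher one was Alcam, with 4.61 to 4.79 on 5 arrays and 11.54 there. The lower ones were Pecam1 at -1.97, Cxcr4 at -1.91, Cd34 at -1.74 and Spn at -1.54. The homing receptor Cxcr4 measured 14.89 to 14.92 in control, 15.14 and 15.15 on Dnmt3b-KO replicates 1 and 2 and 13.24 on replicate 3.

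**Figure D4:**
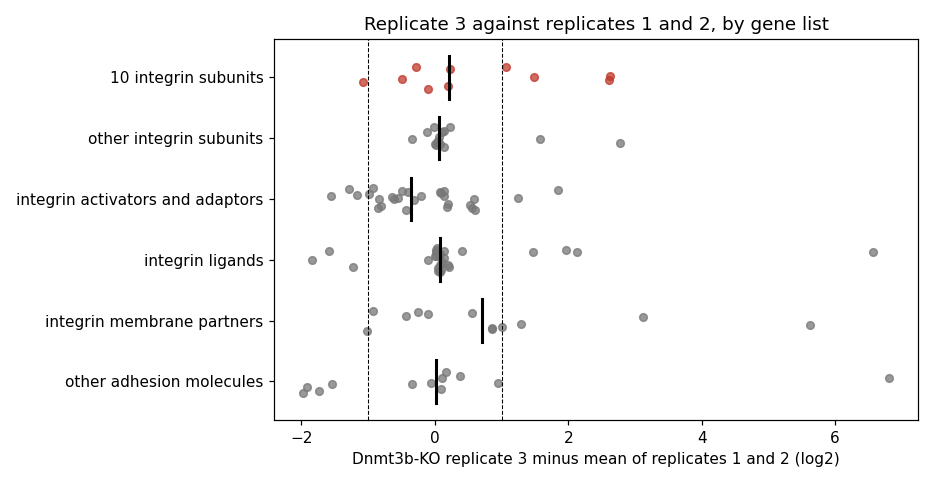
Dnmt3b-KO replicate 3 minus the mean of replicates 1 and 2 (x axis, log2 units) for each of the 10 integrins (top) and for each gene of the 5 related lists; points are genes, short bars are list medians and dashed lines mark 1 and -1. The integrins' median is 0.21 and the activators' -0.36, and 5 of the 10 integrins lie outside the dashed lines.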

How the data were processed

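RNA of sorted leukaemia cells was hybridised to 6 arrays, 3 per group, grouped by the sample titles. The deposited values are log2 levels that the authors made with RMA (version not given), per the submitters' processing notes. They reach 19.59, beyond the 16-bit range of a scanner. The step that gave this scale is not stated, and no folds are given. Of 72688 rows, 6732 array controls were left out of the tests. A probe table with older annotation gave 30604 rows exactly 1 symbol and 2146 rows several, which were not named, and 827 symbols were updated by gene identifier. Each of 30142 genes was represented by its highest-mean row. limma 3.58.1 in R 4.3.3 (lmFit, eBayes, two-sided, Benjamini-Hochberg over all genes, threshold 0.05) compared the groups, with all arrays and without Dnmt3b-KO replicate 3. It was also run on simulated data, with noise drawn separately for each gene and array. An array that deviates across many genes at once, as replicate 3 does, was not part of that simulation. Precision is limited by how few arrays there are.

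The members, lists, tests and the fit without replicate 3 were chosen with earlier results of these data known. Named are all members, Dnmt3b, for each list up to 2 called genes a direction or, with none called, the gene of smallest p, and the gene nearest each member. Other genes are named as chosen after their values were seen: Itgav, Itgad, Itgae, Itga2b and Pf4 as partners, neighbours or markers, Eif2s3y, and in the lists and markers those given for replicate 3, Fn1 and the mast cell, basophil and eosinophil genes. Alternatives were row averaging, a filter on dim genes, quantile normalization, centring, a variance trend, array weights, the replicate block, counting identical values once, and leaving out arrays.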

Additional observations from a re-analysis of the deposited data

How the results depend on the processing

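Over 6 arrays the counts of genes, of integrins and of list members past the threshold, 0 each, stayed 0 under every alternative run except array weights, with 103 genes and 1 list member (Thbs1), and leaving out Dnmt3b-KO replicate 3. The leave-one-out ranges were 0 to 509 genes, 0 to 1 integrins and 0 to 3 list members. Array weights gave that replicate 0.112 against 1.26 to 2.17 for the other arrays. Without replicate 3 the count of 509 genes became 996 among genes above the median gene, where fewer genes are tested, and leaving out 1 more array gave 13 to 262. There the 1 integrin and the 3 list members became 0 and 0 whichever further array was left out (0 to 0). With a Dnmt3b-KO replicate left out, the single remaining one takes its spread from control.

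With the replicate number as a block, 96 genes, 0 integrins and 0 list members passed without replicate 3 (Itgb3, 0.69, adjusted p = 0.062; Cyth1, Thbs1 and Cd34, adjusted p = 0.13, 0.13 and 0.14), and 0 genes, 0 integrins and 0 list members over 6 arrays. The deviations of control and Dnmt3b-KO samples with the same number correlated at 0.13, 0.03 and 0.11, so the numbers were not taken as pairs. The signs of uncalled changes over 6 arrays turned for Itga6 and Itgb7 with array weights (-0.03 and -0.08) and without Dnmt3b-KO replicate 3 (leave-one-out ranges -0.11 to 1.2 and -0.17 to 1.14), for Itgb1 without that array (-0.01 to 0.53), and for Itga5 under quantile normalization (0.0) and without control replicate 1 or Dnmt3b-KO replicate 1 (-0.1 to 0.06). Without replicate 3 the sign of Itgb1 turned with arrays centred (0.0) and without 1 more array, with a range of -0.08 to 0.03. The cause was not tested. The 5 integrins past 1 on replicate 3 became 4 with arrays centred and 4 to 5 when either other Dnmt3b-KO array was left out, an alternative chosen after seeing the data, and none of the 5 changed sign.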
